A study of Mus musculus with 10 samples.

Results

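Two-pore potassium channel genes (the Kcnk or K2P family) were followed in mouse pancreatic islets, small groups of endocrine cells, after blockade of the glucagon receptor (GCGR). The members were the rows of the deposited gene table with the symbols Kcnk1, Kcnk2, Kcnk3, Kcnk5, Kcnk6, Kcnk9, Kcnk10, Kcnk12, Kcnk13 and Kcnk16, which are 10 of the 24475 genes in the table. All mice were of the strain C57BL/6. REGN1193, a GCGR-blocking antibody, had been given to the first group (5 libraries, replicates 1 to 5), and an isotype control antibody to the second (5 libraries, replicates 6 to 10). The labels give no dose, duration, age or sex, and do not name the animal behind a library. A p-value therefore weighs a difference against library-to-library spread alone, which may be technical. An islet library mixes beta, alpha, delta and other cells, so fewer cells of a type and less RNA per cell cannot be told apart.

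Each two-pore channel subunit carries 2 pore loops, and 2 subunits make 1 channel. The channels open at rest and let potassium leave the cell, which holds the membrane potential negative and restrains calcium entry in electrically active endocrine cells. Subfamilies are named for how they are regulated. TWIK channels (Kcnk1, Kcnk6) are weak inward rectifiers, TREK channels (Kcnk2, Kcnk10) respond to stretch and lipids, TASK channels (Kcnk3, Kcnk9) are closed by external acid, TALK channels (Kcnk5, Kcnk16) are opened by external alkali, and THIK channels (Kcnk12, Kcnk13) are inhibited by halothane. In islets the product of Kcnk16, TALK-1, is known to restrain beta cell calcium entry and insulin secretion, and that of Kcnk3, TASK-1, to restrain calcium entry in alpha cells.

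What the members share at the sequence level is the potassium channel signature, 5 codons that form the selectivity filter in each pore loop. An in-frame search of the longest coding sequence linked to RefSeq (GENCODE M21, GRCm38) found 2 signatures in 9 of the 10 members and 1 in Kcnk1. In every match in a Kcnk gene the second codon coded for isoleucine or valine, and the fourth for tyrosine, phenylalanine or leucine. Only spellings that the search allowed could match, so these residues are not a separate finding. A filter spelled otherwise may have been missed, so the single match in Kcnk1 does not show that its other pore loop lacks a filter. Among 20472 mouse coding sequences, 12 held at least 2 signatures (0.0586%), and all 12 were Kcnk genes, while 0.694% held at least 1. Stretches of 5 members that the results turn on are shown 5′ to 3′, with the signature codons in capitals and 9 flanking bases on each side. In Kcnk3 the signatures are codons 93 to 97 and 199 to 203, and the single match in Kcnk1 is codons 225 to 229.
Kcnk3 first pore: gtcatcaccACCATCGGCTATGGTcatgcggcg
Kcnk3 second pore: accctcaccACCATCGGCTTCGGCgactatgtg
Kcnk16 first pore: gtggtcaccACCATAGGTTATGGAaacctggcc
Kcnk2 first pore: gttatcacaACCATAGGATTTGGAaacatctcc
Kcnk2 second pore: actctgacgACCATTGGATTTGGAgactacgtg
Kcnk12 first pore: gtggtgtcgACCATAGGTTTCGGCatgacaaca
Kcnk12 second pore: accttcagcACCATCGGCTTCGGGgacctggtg
Kcnk1 single match: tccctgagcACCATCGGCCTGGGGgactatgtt
The fourth signature codon separated the members. In the first pore it was TAT or TAC in 6 of the 9 members with both sites (Kcnk3, Kcnk5, Kcnk6, Kcnk9, Kcnk10, Kcnk16) and TTT or TTC in the other 3 (Kcnk2, Kcnk12, Kcnk13). In the second pore it was TTT or TTC in 8 of the 9, with Kcnk6 (CTA, leucine) the exception. The single match in Kcnk1, not counted among the 9, also had a leucine codon there (CTG). The 9 bases after that Kcnk1 match are the same as those after the second Kcnk16 signature.

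Values are RPKM, reads scaled by transcript length and library depth, which puts genes of different length on 1 scale. A gene was tested if its mean over the 10 libraries was at least 0.5 RPKM; 13450 genes and 7 of the 10 members passed, and Kcnk2, Kcnk9 and Kcnk10 did not. Depth estimated from the steps of low values was 14.4 to 17.8 megareads in antibody libraries and 12.2 to 14.7 megareads in isotype libraries. None of the alpha, beta, delta or PP cell markers was at 0 in any library. Alpha cell markers were higher with the antibody in 13 of 13 genes, of which 9 passed the test. Of all 13450 tested genes, 4512 were higher with the antibody and 0.394% were called higher. The summed level of the 13 alpha cell markers was 55758 to 84879 RPKM under REGN1193 and 10734 to 18598 RPKM in controls. Beta cell markers (14 genes, of which 0 were higher with the antibody and 0 passed) summed to 199634 to 356935 RPKM under REGN1193 and 299249 to 473321 RPKM in controls.

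Kcnk16, the TALK-1 gene, was by far the most abundant member, and Kcnk3 was the member that changed. In isotype libraries the mean order was Kcnk16 (89.0 ± 14.0 RPKM), Kcnk1 (15.999 ± 3.002), Kcnk12 (3.18 ± 0.599) and Kcnk3 (2.96 ± 0.431; SD, n = 5 each). Kcnk12 and Kcnk3 overlapped there, while each other neighbouring pair of these 4 was separated in every library. In antibody libraries the third place went to Kcnk3 at 8.14 ± 2.23 RPKM, above Kcnk12 at 3.41 ± 1.31 RPKM (SD, n = 5 each). The lowest Kcnk3 value with the antibody (6.22 RPKM) exceeded the highest Kcnk12 value (5.14 RPKM). Kcnk5, Kcnk6 and Kcnk13 had means between 0.554 and 0.806 RPKM in either group and overlapped one another. Kcnk2, Kcnk10 and Kcnk9 lay lowest, with means from 0.0391 to 0.362 RPKM. By mean level over all libraries Kcnk16 ranked 619 and Kcnk1 3898 of the 24475 genes.

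**Figure D1:**
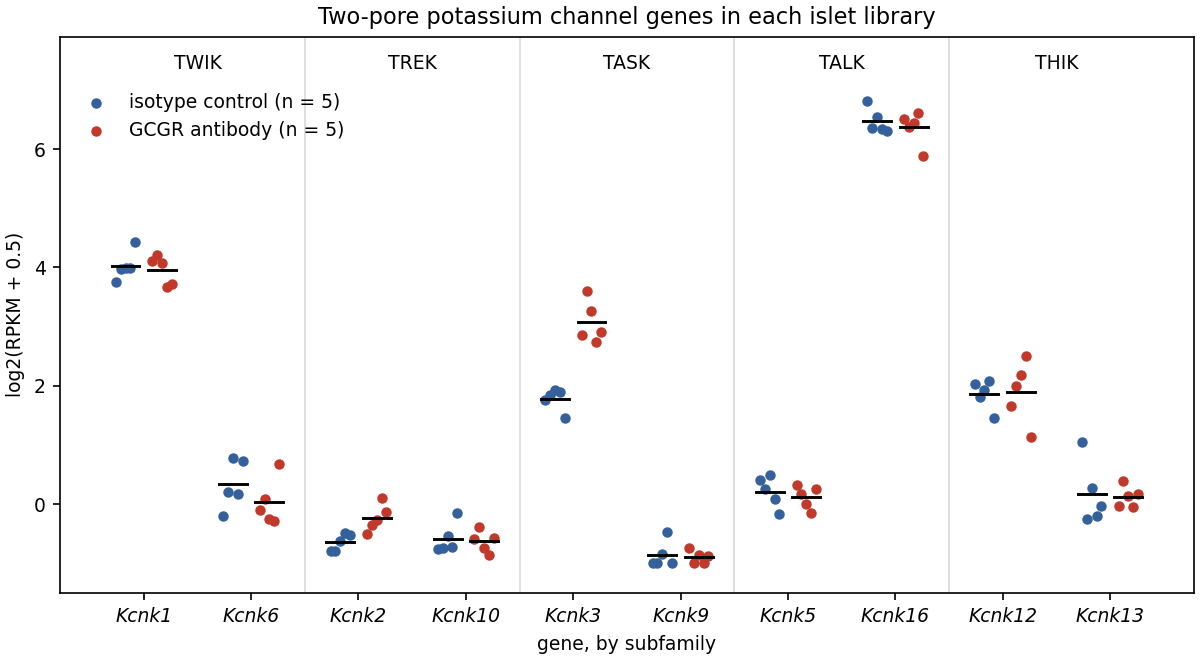
Level of each two-pore channel gene as log2(RPKM + 0.5), 1 point a library, with the group mean as a bar and genes ordered by subfamily. Kcnk3 is the gene whose antibody libraries (6.22 to 11.6 RPKM) all lie above its isotype libraries (2.24 to 3.33 RPKM).

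Among the TASK genes, Kcnk3 rose. In isotype replicates 6 to 10 it stood at 2.90, 3.09, 3.33, 3.23 and 2.24 RPKM, and in antibody replicates 1 to 5 at 6.73, 11.6, 9.06, 6.22 and 7.04 RPKM. Every antibody library was above every isotype library, and antibody replicate 2 was the highest. The ratio of the group means was 2.75. The log2 fold change was 1.29 on the log2(RPKM + 0.5) scale (SE 0.17, 95% interval 0.93 to 1.66, limma adjusted p = 0.00419; exact permutation p = 0.00794, which is the minimum for groups of this size). Kcnk3 was thus 1 of 53 risen genes, 0.394% of those tested, and ranked 19 among them by fold change; lower calls made up 0.0149% of tested genes. Of all tested genes, 1.14% had their 5 antibody values all higher than their 5 isotype values.

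The alternatives did not move Kcnk3 across the threshold except for the exact permutation test adjusted over all genes, in which the smallest adjusted p of any gene was 0.3998. Leaving out 1 library at a time gave log2 fold changes from 1.16 to 1.38, with limma adjusted p at most 0.0207. Kcnk3 (Entrez 16527) lies on chromosome 5 from 30588170 to 30625270 (GRCm38.p6, plus strand). An unstranded kit cannot separate it from Gm9899, a transcript on the opposite strand whose exons overlap those of Kcnk3. Gm9899 was itself listed at 0.0991 to 0.365 RPKM under REGN1193 and 0.0816 to 0.195 RPKM in controls, and its part in the Kcnk3 values was not tested.

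Kcnk3 rose along with the mean log2 level of the alpha cell markers. Its log2 level minus the mean log2 level of the 13 alpha cell markers was -2.60, -2.16, -2.36, -2.75 and -2.61 in antibody replicates 1 to 5 and -2.42, -2.76, -2.65, -2.25 and -2.65 in isotype replicates 6 to 10. The groups overlapped almost completely, with a difference of 0.05 (exact permutation p = 0.722). Against the median of the markers in place of their mean, the difference was 0.25 (exact permutation p = 0.254). With 5 libraries a group, such overlap does not show that Kcnk3 and the markers rose equally. The marker mean itself was higher by 1.24 (exact permutation p = 0.00794). The closeness depends on this summary. The summed RPKM of the same markers was 55758 to 84879 under REGN1193 and 10734 to 18598 in controls. That is a larger proportional gap than that of Kcnk3 (ratio of the group means 2.75). Relative to the 14 beta cell markers, Kcnk3 was higher in every antibody library, by 1.65 on average (exact permutation p = 0.00794). This follows from the rise of Kcnk3 (1.29) and the lower beta cell marker mean (-0.36), and adds no separate support. Delta and PP cell marker means were also higher, by 0.64 and 0.72 on the log2 scale (exact permutation p = 0.00794 and 0.0317), although no marker of either list passed over all genes; their part in the rise of Kcnk3 was not tested.

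**Figure D2:**
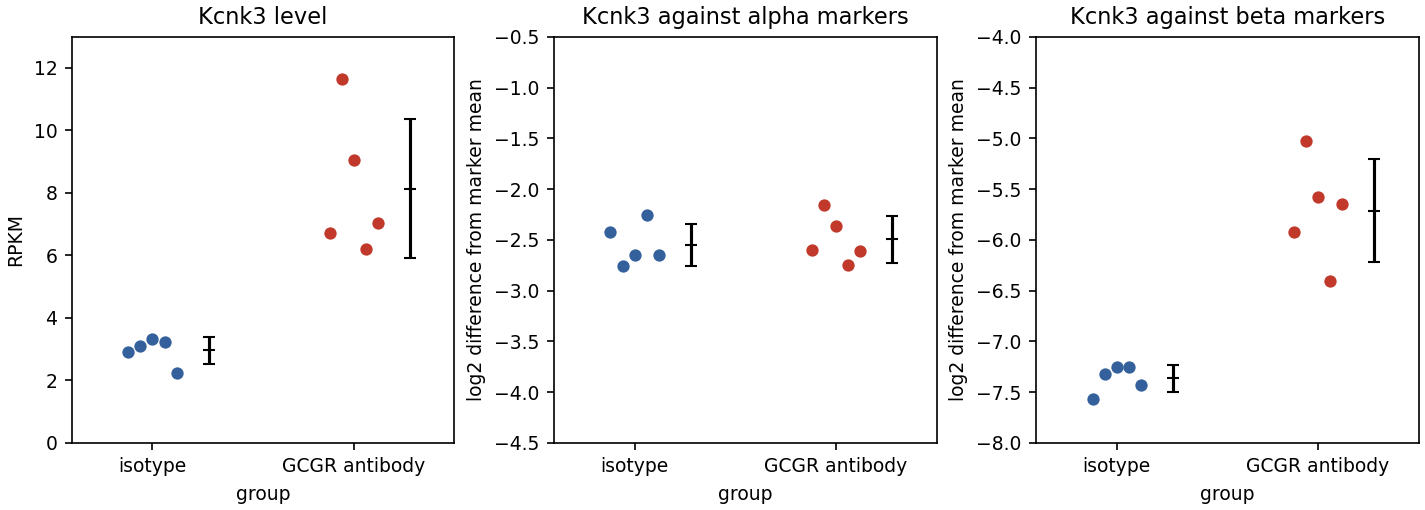
Kcnk3 in each library (points) with group mean ± SD (bars, n = 5), as RPKM on the left, as the log2 difference from the alpha cell marker mean in the middle and from the beta cell marker mean on the right; the middle and right axes do not start at 0. The groups separate in RPKM and against the beta cell markers (differing by 1.65) but not against the alpha cell markers (differing by 0.05). The separation against the beta cell markers follows from the rise of Kcnk3 and the lower beta cell markers.

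The paralog Kcnk9, which encodes TASK-3, was near the detection limit. It was listed at 0 in 5 of the 10 libraries, antibody replicates 2 and 4 and isotype replicates 6, 7 and 10. Antibody replicates 3 and 5 had 0.0521 and 0.0456 RPKM, and isotype replicate 8 had 0.0557 RPKM. The highest values were 0.222 RPKM in isotype replicate 9 and 0.0978 RPKM in antibody replicate 1, or 4 reads and 2 reads by the shortest transcript length that fits the steps of the values. By the annotated length of 12300 bases they would be 40.11 and 20.23 reads, so the reads behind Kcnk9 are uncertain. The groups did not separate (log2 difference -0.03, exact permutation p = 0.802).

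The TALK genes overlapped between groups. Kcnk16 was at 91.0, 82.9, 86.6, 97.1 and 58.8 RPKM in antibody replicates 1 to 5 and at 111.9, 81.1, 93.1, 80.3 and 78.6 RPKM in isotype replicates 6 to 10. The ranges overlapped, with antibody replicate 5 lowest and isotype replicate 6 highest. The log2 fold change was -0.10 (SE 0.15, 95% interval -0.44 to 0.23, limma adjusted p = 0.928). Relative to the beta cell marker mean, which was lower by 0.36 with the antibody (exact permutation p = 0.0238), Kcnk16 differed by 0.25 (exact permutation p = 0.0635). Without antibody replicate 5 that difference was 0.32 (exact permutation p = 0.0238). Kcnk5, which encodes the acid- and alkali-sensitive TASK-2, was at 0.755, 0.623, 0.505, 0.406 and 0.688 RPKM in antibody replicates 1 to 5. In isotype replicates 6 to 10 it was at 0.819, 0.695, 0.901, 0.559 and 0.393 RPKM, so that the isotype libraries held both extremes (log2 fold change -0.09, SE 0.17, 95% interval -0.47 to 0.29; exact permutation p = 0.563).

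Kcnk16 and Kcnk5 are neighbours. Both lie on the minus strand of chromosome 14 in GRCm38.p6, Kcnk5 from 20140057 to 20181782 and Kcnk16 from 20261375 to 20269269, with 79.6 kb and no other protein-coding gene of GENCODE M21 between them. Their mean levels over all libraries were 0.634 and 86.1 RPKM. The 250 bases before each RefSeq start (GRCm38.p6) are shown because the 2 neighbours differ so much in level; capitals mark CG dinucleotides, and the spans are chr14:20269270-20269519 for Kcnk16 and chr14:20181783-20182032 for Kcnk5, both read on the minus strand.
Kcnk16: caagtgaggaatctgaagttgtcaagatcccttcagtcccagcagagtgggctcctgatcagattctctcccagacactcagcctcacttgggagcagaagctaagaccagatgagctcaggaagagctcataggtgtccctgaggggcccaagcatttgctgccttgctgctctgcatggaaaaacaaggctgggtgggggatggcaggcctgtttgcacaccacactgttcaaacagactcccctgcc
Kcnk5: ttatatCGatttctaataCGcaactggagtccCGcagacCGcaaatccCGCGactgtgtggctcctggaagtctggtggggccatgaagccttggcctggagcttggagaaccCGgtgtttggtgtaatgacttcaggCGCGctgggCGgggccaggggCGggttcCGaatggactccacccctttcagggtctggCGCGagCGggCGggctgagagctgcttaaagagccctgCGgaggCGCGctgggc
The Kcnk16 window holds 0 CG dinucleotides, as do 7.87% of the 32851 promoter windows of the same length. The Kcnk5 window holds 19, and 19.7% of windows hold at least as many, against a median of 6. The promoter table holds no entry for Kcnk3, Kcnk6 or Kcnk9.

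Among the TWIK genes, neither passed. Exons of Gm45875, an antisense gene, overlap those of Kcnk1, and exons of the antisense gene A430027H14Rik overlap those of Kcnk2, so reads of either pair cannot be told apart without strand. Kcnk1, the TWIK-1 gene, was at 16.7, 18.1, 16.4, 12.2 and 12.7 RPKM in antibody replicates 1 to 5 and at 13.001, 15.2, 15.4, 15.3 and 21.1 RPKM in isotype replicates 6 to 10. The groups overlapped (log2 fold change -0.07, SE 0.15, 95% interval -0.39 to 0.26, limma adjusted p = 0.956). Kcnk6, the TWIK-2 gene, was at 0.435, 0.562, 0.343, 0.321 and 1.11 RPKM in antibody replicates 1 to 5. The isotype replicates 6 to 10 gave 0.369, 0.651, 1.22, 0.624 and 1.17 RPKM. Antibody replicate 5 lay with the upper isotype values and the other 4 antibody libraries with the lower ones. The 95% interval of Kcnk6 was the widest of the 7 tested members, -0.85 to 0.23 around a value of -0.31 (SE 0.25; limma adjusted p = 0.862).

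The THIK genes also overlapped between groups. Kcnk12, the THIK-2 gene, was at 2.66, 3.498, 4.03, 5.14 and 1.69 RPKM in antibody replicates 1 to 5 and at 3.59, 3.02, 3.31, 3.75 and 2.23 RPKM in isotype replicates 6 to 10. Both the highest and the lowest value belonged to antibody libraries (log2 fold change 0.03, SE 0.23, 95% interval -0.47 to 0.54, limma adjusted p = 0.991). Kcnk13, the THIK-1 gene, was at 0.482, 0.817, 0.596, 0.468 and 0.620 RPKM in antibody replicates 1 to 5. In isotype replicates 6 to 10 it was at 1.57, 0.342, 0.715, 0.367 and 0.482 RPKM, so the antibody values lay inside the isotype range (log2 fold change -0.05, SE 0.24, limma adjusted p = 0.986).

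**Figure D3:**
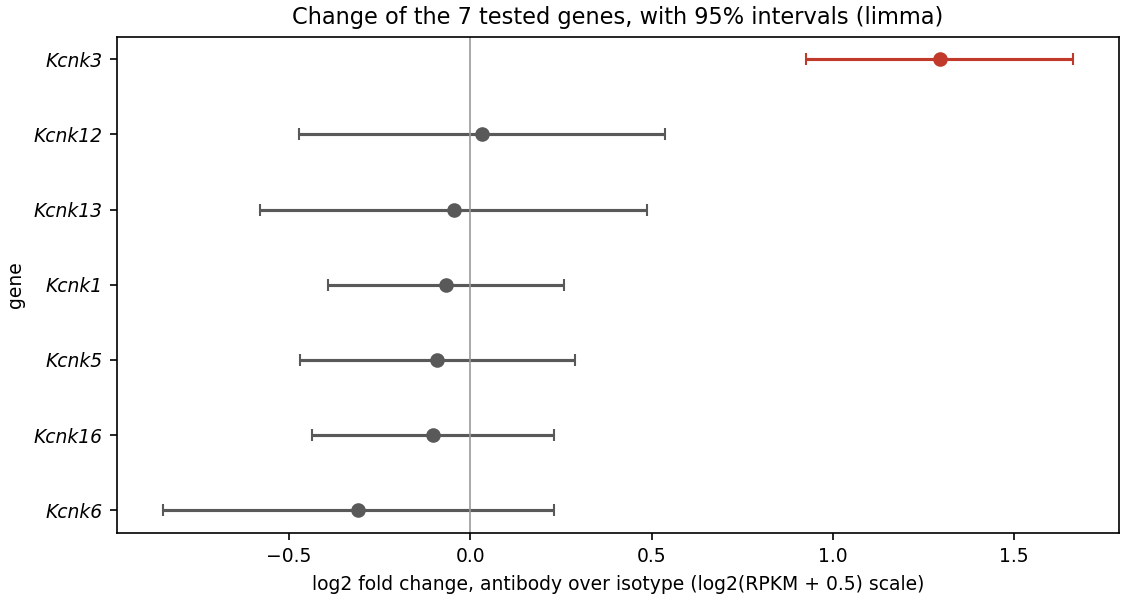
Log2 fold change of the 7 tested members (x axis, antibody over isotype, with 95% limma intervals; red, adjusted p under 0.05). The interval of Kcnk3 runs from 0.93 to 1.66, while those of the other 6 members include 0.

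Of the TREK genes, Kcnk2 (TREK-1) was low, and its groups overlapped in 1 pair of libraries. It was listed at 0.207, 0.287, 0.326, 0.577 and 0.410 RPKM in antibody replicates 1 to 5 and at 0.0752, 0.0771, 0.1503, 0.214 and 0.198 RPKM in isotype replicates 6 to 10. By the shortest transcript length that fits the steps of the values, 3.14 kb, these are 11, 13, 16, 26 and 23 reads against 3, 3, 7, 10 and 8 reads. Only antibody replicate 1 lay inside the isotype range, just below isotype replicate 9. The ratio of the group means was 2.53 and the log2 difference 0.41, which the pseudocount of 0.5 compresses. The unadjusted exact permutation p was 0.0159. Tested without a filter on low values, Kcnk2 did not pass (limma adjusted p = 0.330, where 0.202% of 19832 genes were called higher). Mesenchymal markers, a possible source of low transcripts in islets, summed to 15.6 to 182.0 RPKM under REGN1193 and 19.3 to 172.9 RPKM in controls; their part was not tested. Kcnk10, the TREK-2 gene, was at 0.163, 0.267, 0.0994, 0.0539 and 0.174 RPKM in antibody replicates 1 to 5. In isotype replicates 6 to 10 it was at 0.0932, 0.0955, 0.186, 0.106 and 0.399 RPKM, with the groups interleaved (log2 difference -0.04, exact permutation p = 0.770), or 2 to 13 reads by the same reckoning.

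The summed level of the 10 members overlapped between groups, while the share held by Kcnk3 did not. The sum was 112.4 ± 16.4 RPKM under REGN1193 and 113.7 ± 12.9 RPKM in controls (SD, n = 5 each; exact permutation p = 0.881). Kcnk3 made up 5.65%, 9.80%, 7.68%, 5.07% and 8.45% of the sum in antibody replicates 1 to 5 and 2.16%, 2.97%, 2.81%, 3.08% and 2.10% in isotype replicates 6 to 10. The groups did not overlap (7.33% ± 1.96 against 2.62% ± 0.461; SD, n = 5 each; exact permutation p = 0.00794). The Kcnk16 share was 73.9% ± 3.93 with REGN1193 and 78.0% ± 3.52 without it (SD, n = 5; exact permutation p = 0.119), and without antibody replicate 4 the exact permutation p was 0.0397. Kcnk2 took 0.331% and 0.129% (exact permutation p = 0.0238), and without isotype replicate 6 or 7 the exact permutation p was 0.0635. The shares of the other 7 members gave exact permutation p-values of at least 0.468. These 10 p-values are unadjusted, and shares depend on one another because they add up to the whole. A library's scaling cancels in a share. With Kcnk16 taken out of the sum, Kcnk3 rose from 12.1% to 27.7% (exact permutation p = 0.00794) and Kcnk1 went from 64.4% to 52.4% (exact permutation p = 0.0159). Both p-values are also unadjusted. The 2 Kcnk3 share differences, with and without Kcnk16, draw on the same Kcnk3 values as its rise in level, so they add no separate support. A larger Kcnk3 part lowers the Kcnk1 share, and the Kcnk1 level itself was not called (log2 fold change -0.07, limma adjusted p = 0.956).

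**Figure D4:**
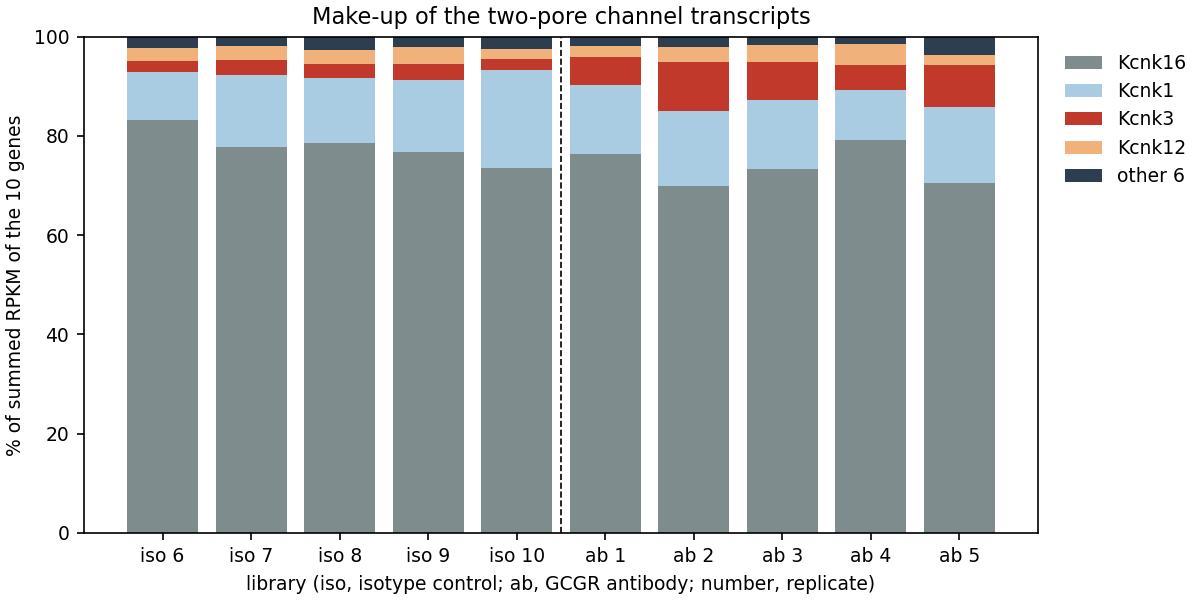
Share of the summed RPKM of the 10 members held by Kcnk16, Kcnk1, Kcnk3, Kcnk12 and the other 6 genes, 1 bar a library, isotype libraries left of the dashed line. The Kcnk3 part (red) spans 2.10% to 3.08% in isotype libraries and 5.07% to 9.80% in antibody libraries.

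Relative to the alpha cell markers, each of the 6 tested members other than Kcnk3 was lower in every antibody library, with log2 differences from -1.21 (Kcnk12) to -1.55 (Kcnk6; exact permutation p = 0.00794 for each). This follows from the rise of the markers and adds nothing on those members. Relative to the beta cell markers the same 6 differed by 0.05 (Kcnk6) to 0.39 (Kcnk12), with exact permutation p-values from 0.0635 to 0.905. These differences include the lower beta cell marker mean (-0.36). For Kcnk12 the exact permutation p was 0.0794, and without antibody replicate 5 it was 0.0159. For Kcnk5 it was 0.190, and without antibody replicate 4 it was 0.0238. In 11 of 13 alternatives for Kcnk12 and 12 of 13 for Kcnk5, the exact permutation p stayed above 0.05. All 14 comparisons with the markers are unadjusted.

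Libraries with a high or low Kcnk16 value within their group had like values of Ier5 (Pearson r = 0.98), H3f3a (0.96) and 1190007I07Rik (0.95) after each group mean was subtracted. For Kcnk3 the most alike genes were Slc48a1 (0.92), Ubb (0.90) and Csf1 (0.90). These are the top 3 of 8383 genes averaging 5 RPKM or more, over 10 libraries that differ in depth and in islet make-up, both of which enter every gene's values, so they describe these libraries only.

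The 4 other Kcnk genes in the table were barely seen. Kcnk18 was listed at 0 in all 10 libraries, Kcnk7 and Kcnk15 in 9, and Kcnk4 in 8. No value among them exceeded 0.0696 RPKM, about 1 read.

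Other potassium channel genes and genes of accessory subunits gave 2 risen and 0 fallen among 39 tested of 81 listed. Over all tested genes, 0.409% were called in either direction. The median log2 fold change of the 39 was -0.05, and that of all tested genes -0.07. For the 7 tested two-pore genes it was -0.07, with 1 risen and 0 fallen. These medians hide differences in both directions. Of the 39, 14 had an unadjusted limma p under 0.05, beside 944 of all 13450 tested genes. In 9 of the 39 the groups did not overlap, 5 of them higher with the antibody, beside 1.99% of all tested genes. Kcnj3, which encodes the G protein-gated inward rectifier subunit GIRK1, rose to 1.59 ± 0.288 RPKM, against 0.417 ± 0.158 RPKM in controls (SD, n = 5). The log2 fold change was 1.20 with an SE of 0.17 (limma adjusted p = 0.00925). Without antibody replicate 5 and isotype replicate 10 together its limma adjusted p was 0.0502. Its partner Kcnj6 (GIRK2) stood at 0.32 on the log2 scale (SE 0.14; limma adjusted p = 0.663) and Kcnj12, a classical inward rectifier, -0.59 (SE 0.17, limma adjusted p = 0.341).

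Kcnip3, a calcium-binding partner of Kv4 channels, rose to 2.68 ± 0.482 RPKM, against 0.994 ± 0.392 RPKM in controls (SD, n = 5). The log2 fold change was 1.12 with an SE of 0.19 (limma adjusted p = 0.0295). This call was lost without antibody replicate 2, 3, 4 or 5 or isotype replicate 6, 9 or 10 (limma adjusted p up to 0.115). Kcnab3, a cytosolic beta subunit of Kv channels, was at 2.28 ± 0.306 against 4.81 ± 1.38 RPKM (SD, n = 5 each), with every antibody library below every isotype library, and did not pass (log2 fold change -0.90, SE 0.18, limma adjusted p = 0.0625). It passed without isotype replicate 6 (limma adjusted p = 0.0268) and under each of the 3 scalings (limma adjusted p from 0.0393 to 0.0498), and with array weights (limma adjusted p = 0.00713). Kcnip2, another Kv4 partner, stood at -0.38 on the log2 scale (SE 0.18; limma adjusted p = 0.722).

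None of the 18 tested voltage-gated channel genes passed, though 6 had groups that did not overlap, beside 1.99% of all tested genes. Among those with the smallest p-values were Kcnc4, a Kv3 channel gene, at 0.83 on the log2 scale (SE 0.18; limma adjusted p = 0.125), and Kcnf1, a silent modifier subunit gene, at -0.84 (SE 0.21; limma adjusted p = 0.207). Of the 6 tested calcium- and sodium-activated channel genes 0 passed, with Kcnn3, an SK channel gene, at -0.20 (SE 0.15), Kcnn4, the intermediate conductance channel gene, at 0.32 (SE 0.26) and Kcnma1, the BK channel gene, at -0.11 (SE 0.11). Limma adjusted p for these 3 was 0.852 to 0.880.

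Of 13 genes whose proteins are described as partners of two-pore channels, 0 were called, beside 55 of all 13450 tested genes. At an unadjusted limma p under 0.05 there were also 0, beside 944 of the 13450. With shares this low over all tested genes, 0 of 13 says little about these genes. The smallest p-values belonged to Arf6, a small GTPase linked to TWIK-1 recycling (log2 fold change -0.14, SE 0.10), Pld2, a phospholipase that binds TREK channels (-0.26, SE 0.22), and Spp1, osteopontin, a reported TALK-1 partner (0.77, SE 0.67). Spp1 is also a duct marker and varied widely, at 400.8 ± 323.2 RPKM under REGN1193 and 184.6 ± 98.9 RPKM in controls (SD, n = 5 each).

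**Figure D5:**
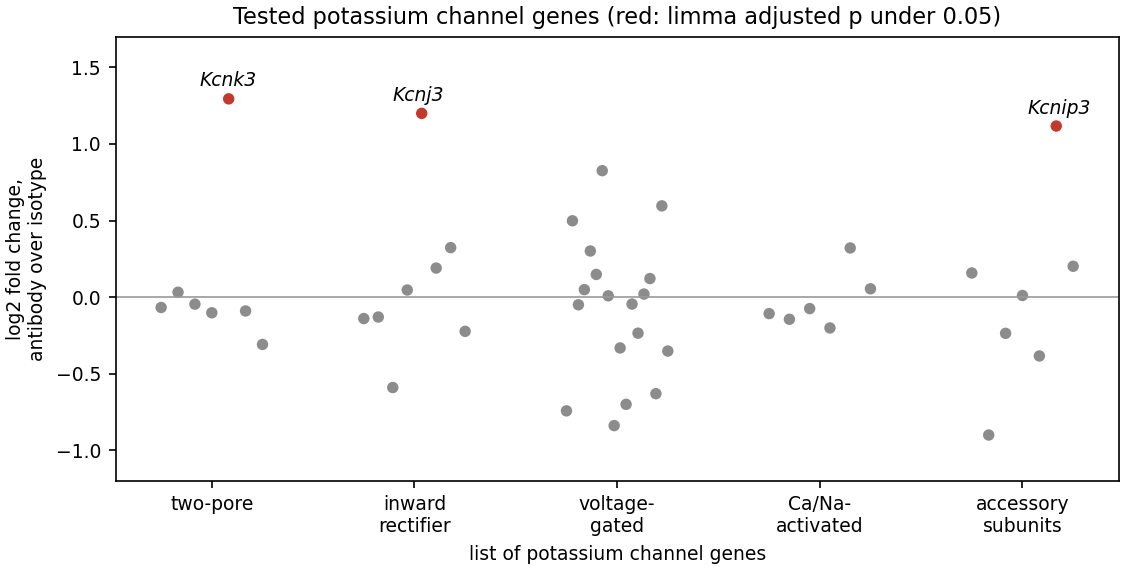
Log2 fold change (y axis, antibody over isotype) of every tested potassium channel or accessory subunit gene, 1 point a gene, by list. Red points passed at a limma adjusted p under 0.05. The 3 red points are Kcnk3 (1.29), Kcnj3 (1.20) and Kcnip3 (1.12).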

How the data were processed

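A Histopaque gradient separated the islets, per the labels' protocols; miRNeasy columns gave the RNA, whose polyA fraction was made into libraries by Nextera XT, a kit that does not mark strand. The authors deposited 1 table of RPKM values for 10 libraries. The submitters' processing notes name GRCm38, mm10, CASAVA 1.8.2 and FastQC without roles; for aligner, counter and annotation, the names were not given in the sources used here.

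RPKM were used as log2(RPKM + 0.5) without rescaling, which understates changes of low genes. The model was limma's (version 3.58.1, R 4.3.3) with a variance trend, Benjamini-Hochberg adjustment over the 13450 genes averaging 0.5 RPKM or more, and a threshold of 0.05, a step tested on simulated data. For single values an exact permutation test (two-sided, 252 assignments) was used. Depth in megareads was estimated from the steps of low RPKM values of genes with 1 RefSeq-linked transcript length (GENCODE M21). Between 71.6% and 75.4% of these low values lay within 0.1 of a whole read. Reads behind Kcnk2, Kcnk9 and Kcnk10 are inferred from the smallest length giving whole reads (within 0.15) in all libraries.

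All members are reported. Of other lists, called genes and up to 3 with the smallest p were named. One gene and one sequence that these rules would show are not reported here. Members and lists were chosen with earlier results of these data known. Alternatives were other pseudocounts, filters, scalings, variance settings, covariates and omitted libraries. Plots used matplotlib 3.10.9 in Python 3.11.15.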

Additional observations from a re-analysis of the deposited data

Results flagged for a closer look

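A single library stood apart from the rest of its group in 2 of the 22 sets of 5 values checked (each member and their sum, per group); chance gives about 1 in 20. Kcnk9 was at 0.222 RPKM in isotype replicate 9, with the other isotype libraries at 0 to 0.0557 RPKM; the reads behind it are uncertain. The summed level of the 10 members was lowest in antibody replicate 5, at 83.3 RPKM, where the other antibody libraries and all isotype libraries were at 104.3 RPKM or above. Without that library the antibody minus isotype difference of the sum was 5.92 RPKM in place of -1.35 RPKM (exact permutation p = 0.452 and 0.881).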

How the results depend on the processing

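No paired analysis was possible because the groups share no replicate number. The number of risen members was 1 in each alternative except the exact permutation test adjusted over all genes, where it was 0; the number of fallen members was 0 throughout. Kcnk1, Kcnk9, Kcnk10, Kcnk12, Kcnk13 and Kcnk16, with differences near 0, took either sign across the alternatives but were never called. The summed level of the members differed by -3.90 to 5.92 RPKM with 1 library left out and by 2.74 RPKM with trimmed mean scaling. Among accessory subunits, the risen count was 0 without a filter (Kcnip3, limma adjusted p = 0.0701) and the fallen count was 1 with trimmed mean scaling (Kcnab3). For all tested genes under limma, the risen count ranged from 23 (minimum mean of 5 RPKM) to 121 (array weights) and the fallen count from 0 to 61, against 53 and 2. The reads behind Kcnk2, Kcnk9 and Kcnk10 are few or uncertain.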
